A study of Drosophila melanogaster with 3 samples.

Results

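Binding of the homeodomain protein OdsH was examined at 9 neuronal genes: *elav* and its paralogs *fne* and *Rbp9*, the synaptic genes *nSyb*, *Syt1* and *brp*, and *futsch*, *para* and *pros*. The genes were chosen by name, with earlier results of these data known. All 9 are among the 13945 protein-coding genes annotated on the 6 chromosome arms. A ChIP-seq summit was assigned to a gene when it lay inside the gene or up to 1000 bp upstream of its start. By this rule the 9 genes held 9 of the 8700 summits. The material was whole white prepupae, males and females pooled and of unstated age, from the *Drosophila melanogaster* strain OdsH-GFP, which stably expressed OdsH with GFP at the C terminus. Per the submitters' description the antibody was against GFP, while their antibody field reads OdsH. The 3 biological replicates formed the only group, with no other stage or genotype. The sources used here do not name the promoter of the fusion or the cells that carried it. In whole animals, binding in few cells and weak binding in many cells cannot be told apart.

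ELAV, FNE and RBP9 are RNA-binding proteins with RNA recognition motifs that regulate splicing and the choice of 3' ends of messages in neurons. ELAV is the customary marker of differentiated fly neurons, while RBP9 is also known from the ovary. The other genes mark later or earlier steps of the neuronal programme. *nSyb* encodes the vesicle SNARE neuronal Synaptobrevin, *Syt1* the calcium sensor Synaptotagmin, and *brp* the active zone scaffold Bruchpilot. *futsch* encodes a microtubule-associated protein of axons, *para* the voltage-gated sodium channel, and *pros* the homeodomain protein Prospero, which ends proliferation in neural lineages.

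Peaks were those the authors kept by the irreproducible discovery rate (IDR) procedure on genome build dm6. The strength of a peak is the signal value of the authors' peak caller, which has no stated unit and was compared only within 1 list. In the IDR set it ranged from 77.5 to 3230 with a median of 153. A replicate was said to support a peak when at least 1 bp of the peak overlapped 1 of that replicate's own 8700 strongest rows. All 3 replicates supported 71% of the IDR peaks and 7 of the 9 peaks at these genes. Depth per library is unknown from the files used here.

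Of the 9 genes, 5 had a summit: *elav* 3, *fne* 2, *Rbp9* 2, *futsch* 1 and *pros* 1. *nSyb*, *Syt1*, *brp* and *para* had none. Of all protein-coding genes, 26.9% held at least 1, but the share was 20.4% for intervals under 10 kb, 54.4% for 10 to 20 kb, 69% for 20 to 50 kb and 76.1% for over 50 kb. The 9 genes were long, with a median interval of 33.9 kb against 3.17 kb for all genes. Together they held 2.61 summits per 100 kb, against 7.40 over all protein-coding genes. By role, density was 11.0 summits per 100 kb in the *elav* family and 0.976 in *futsch*, *para* and *pros*. Counted in each replicate's own 8700 strongest rows, replicates 1, 2 and 3 placed 8, 8 and 13 summits in the 9 genes, a mean of 9.67 ± 2.89 (SD, n = 3). The higher count of replicate 3 came mostly from *pros*, with 4 summits against 1 in each of the others. With 1 group and no second condition, these are descriptions without a test.

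**Figure D1:**
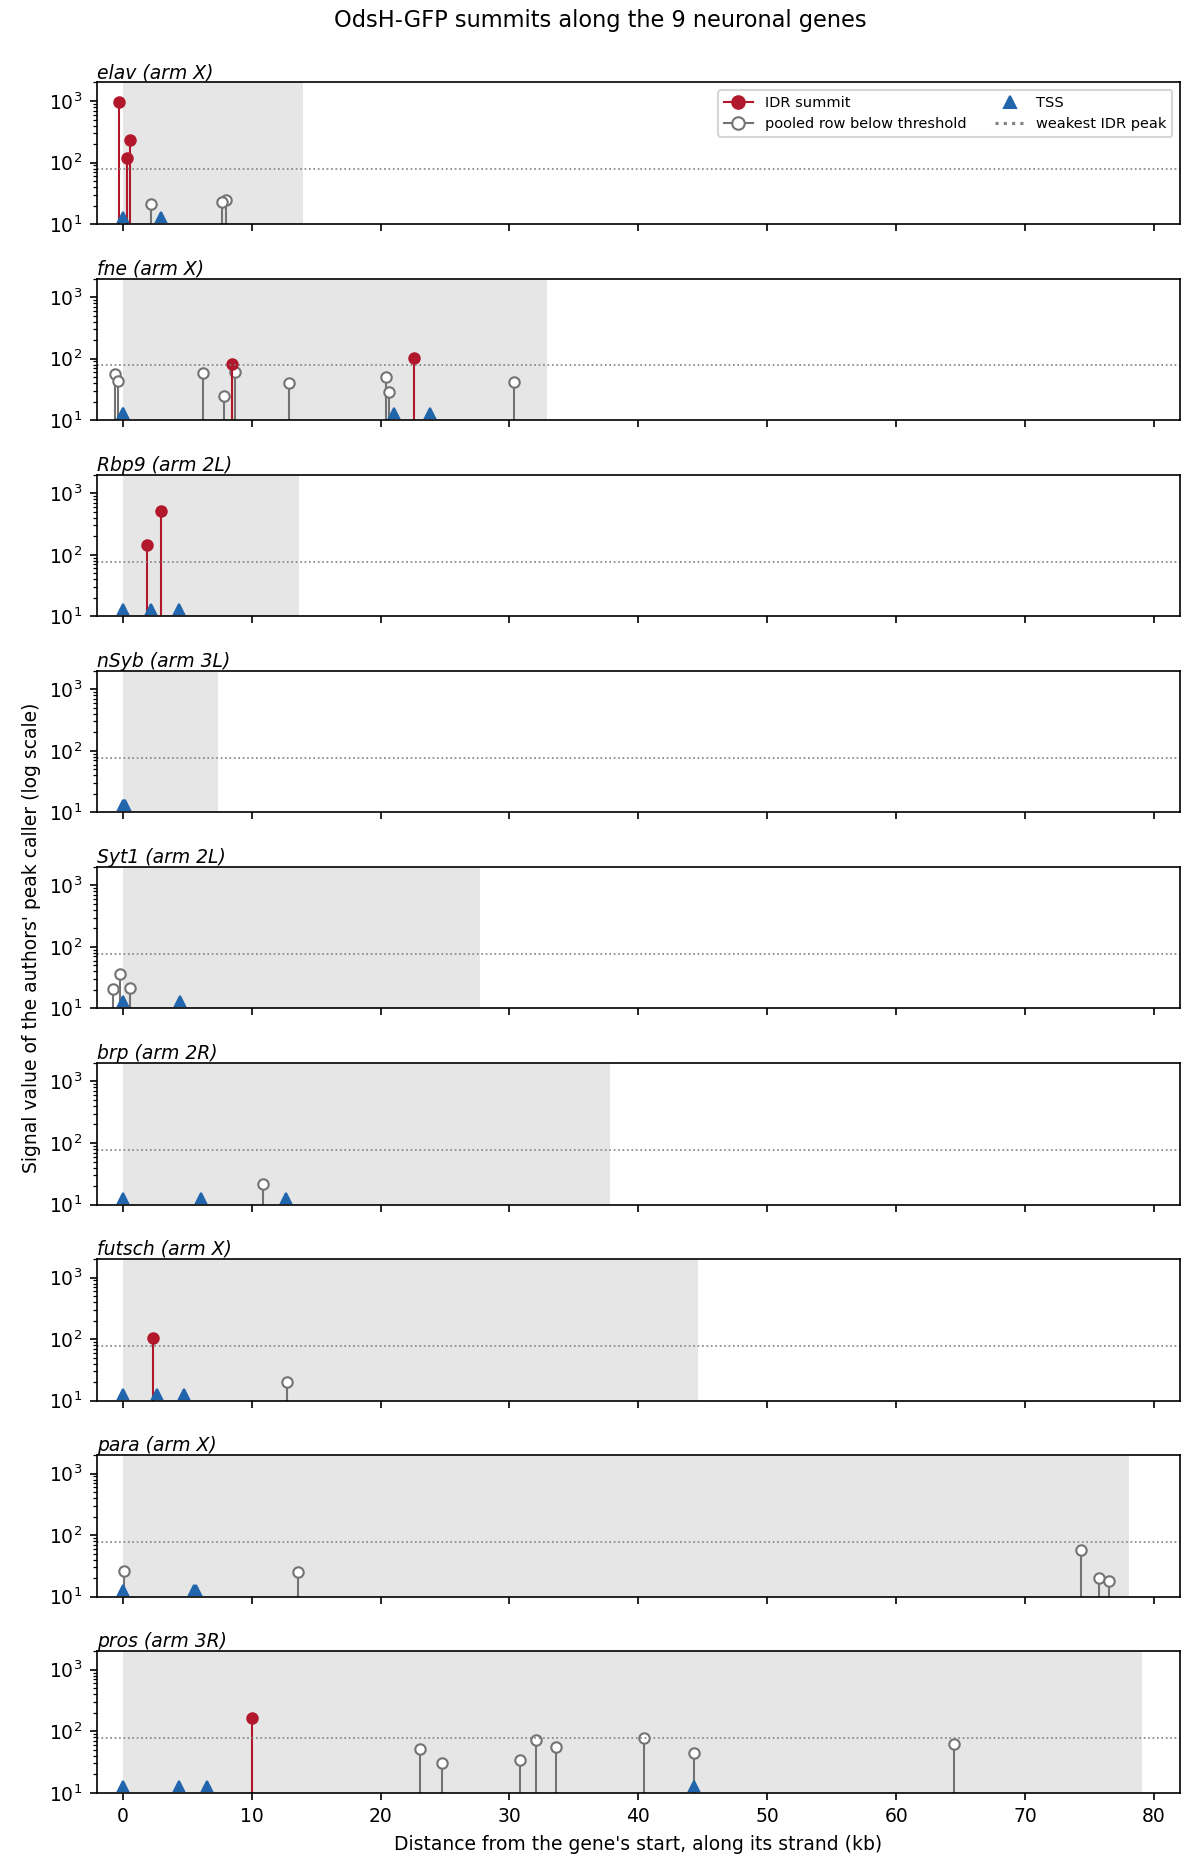
Position and strength of ChIP-seq summits along the 9 genes, with distance from the gene's start in kb on the x axis and the authors' signal value on a log y axis. Filled points are IDR summits, open points are weaker rows of the pooled list (the dotted line at 77.5 marks the IDR threshold), triangles are transcription start sites and grey marks the gene body; the 3 filled points of *elav* crowd its start, and 4 genes have no filled point.

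The strongest summit of the 9 genes stood at the *elav* promoter. *elav* (FBgn0260400, X, 509235 to 523226, minus strand, dm6) has 4 annotated transcripts, of which 3 share a transcription start site (TSS) at 523226. The summit at 523503 lay 277 bp upstream of this TSS with a signal value of 972, rank 149 of 8700, so that 1.70% of IDR peaks were stronger. In the lists of replicates 1, 2 and 3 its signal value was 254, 438 and 283 and its rank 155, 123 and 181, with summits 9, 14 and 16 bp from the pooled position. Among the 3755 protein-coding genes with a summit, *elav* took place 203 by its strongest peak.

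Both other *elav* summits were intronic and just inside the gene. They lay 350 bp downstream of the same TSS (position 522876, signal value 117, rank 5833) and 554 bp downstream of it (position 522672, signal value 237, rank 2447). These summits were 204 bp apart and their peaks overlapped, which leaves 2 separate regions at *elav*. Over the whole IDR set, 888 summits (10.2%) had another within 250 bp. Replicate 2 had a row at each position, with signal values of 50.1 at 350 bp and 97.0 at 559 bp, and so did replicate 3, with 45.0 at 351 bp and 84.7 at 553 bp. Replicate 1 had a single row, 382 bp downstream, with a signal value of 55.6 and rank 3119. The replicates therefore placed 2, 3 and 3 of their own summits in *elav*, a mean of 2.67 ± 0.577 (SD, n = 3).

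The rest of *elav* was nearly empty. No summit lay within 1000 bp of its second TSS at 520285, which 1 transcript uses, and the nearest was 2387 bp away. Further into the gene, 3 weaker pooled rows missed the IDR set, the strongest with a signal value of 24.5 at rank 22834 of 30000, and only replicate 2 had rows over them. For genes with intervals of 10 to 20 kb, the class of *elav*, 18.9% had 3 or more summits, and over all protein-coding genes 5.64% did.

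Other genes share this stretch of DNA. *arg*, which encodes arginase, runs on the opposite strand (X, 509435 to 528028), and all 3 *elav* summits lay in an intron of its 1 transcript, 13237 to 14068 bp from its own TSS. The noncoding gene *lncRNA:enrr* (X, 513106 to 523226) starts at the same base as *elav*, on the same strand. Position therefore cannot assign these summits to *elav* alone. The summit base with 50 bases on each side is printed for all 3 summits because they carry the strongest signal at these genes and differ in base composition. They are read 5' to 3' on the plus strand of dm6, with capitals for TAATTG or its reverse complement CAATTA, a word that many homeodomains bind.
*elav* at -277 bp (chrX:523453-523553): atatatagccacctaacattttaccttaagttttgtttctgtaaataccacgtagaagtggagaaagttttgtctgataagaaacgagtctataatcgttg
*elav* at +350 bp (chrX:522826-522926): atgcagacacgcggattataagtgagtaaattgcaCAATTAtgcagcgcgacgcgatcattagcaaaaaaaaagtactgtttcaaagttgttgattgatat
*elav* at +554 bp (chrX:522622-522722): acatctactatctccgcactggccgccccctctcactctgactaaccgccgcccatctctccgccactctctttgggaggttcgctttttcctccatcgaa

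The first of these windows had a GC content of 32.7% and the second 36.6%, against a median of 30.7% over all 8700 summit windows, whose middle quartiles ran from 26.7 to 35.6%. The third, with 57.4%, was exceeded by 0.598% of all windows. The strongest *elav* window held neither TAATTG nor the other words searched on both strands, TAATTA among homeodomain words and, as a promoter element, TATCGATA. The middle window held CAATTA.

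*Rbp9* resembled *elav* in having a strong summit close to a TSS, though at an internal one. *Rbp9* (FBgn0010263, 2L, 2954762 to 2968434, plus strand) starts at 3 positions, and 4 of its 9 transcripts start at the middle one, 2956911. A summit at 2957742, 831 bp downstream of this TSS and intronic, had a signal value of 514 and rank 692. Its signal value was 140, 192 and 191 and its rank 654, 916 and 486 in replicates 1, 2 and 3. The second summit lay 247 bp upstream of the same TSS, at 2956664, with a signal value of 145 and rank 4625. Here replicates 2 and 3 had rows with signal values of 55.2 and 30.0, ranks 5642 and 7017, close to the pooled summit. Replicate 1 had its nearest row at rank 8738. Replicates 1 and 2 also had a stronger row 196 and 167 bp away, at ranks 3686 and 3042. No summit lay within 1000 bp of the first TSS at 2954762 or the third at 2959147. The pooled list held no further row in *Rbp9*, and the replicates placed 2, 3 and 2 summits there (2.33 ± 0.577, SD, n = 3).

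*fne* had the weaker pattern of the family, with both summits in introns and none within 1000 bp of a TSS. *fne* (FBgn0086675, X, 12917477 to 12950417, plus strand) has 11 transcripts from 4 start positions. Its stronger summit, at 12940086, had a signal value of 104.1 and rank 6594 and lay 1569 bp downstream of the TSS used by 5 transcripts and 1186 bp upstream of the next. Replicates 1, 2 and 3 gave it signal values of 36.1, 40.9 and 24.8 and ranks of 5495, 7925 and 8381, all within their 8700 strongest. The other, at 12925980, had a signal value of 83.2 and rank 8159, near the end of the IDR set, and lay 8496 bp from the nearest TSS. Replicates 1 and 3 supported it at ranks 8423 and 8058, with summits 138 and 34 bp away, and replicate 2 had its row at rank 10513. *fne* also held 9 pooled rows below the threshold, more than any other of the 9 genes. A pair of them lay 584 and 380 bp upstream of the first start positions, with signal values of 56.9 and 43.8. The strongest, with a signal value of 59.7, lay beside the summit at 12925980.

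The windows of the stronger *Rbp9* summit and of both *fne* summits follow because they had the lowest GC content of the 9, on the plus strand of dm6. Capitals mark CAATTA in the *Rbp9* window and TAATTA in the second *fne* window.
*Rbp9* at +831 bp (chr2L:2957692-2957792): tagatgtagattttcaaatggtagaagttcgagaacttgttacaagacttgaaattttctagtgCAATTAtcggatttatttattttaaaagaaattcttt
*fne* at -1186 bp (chrX:12940036-12940136): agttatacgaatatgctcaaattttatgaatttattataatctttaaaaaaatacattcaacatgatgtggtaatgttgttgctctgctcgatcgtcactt
*fne* at +8496 bp (chrX:12925930-12926030): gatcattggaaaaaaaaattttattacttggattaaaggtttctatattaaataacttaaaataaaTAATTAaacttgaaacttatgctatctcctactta

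The *Rbp9* window had 25.7% GC, with an uninterrupted run of 17 A and T bases. The *fne* windows had 27.7 and 19.8% GC, and 3.03% of all summit windows had less GC than the last. It was the only window at these 9 genes with TAATTA.

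Set side by side, the family fell in the order *elav*, *Rbp9*, *fne* by strongest signal value (972, 514 and 104.1), and the order was the same by rank in each of the 3 replicate lists. The number of summits separated them less. The replicates' own counts were 2, 3 and 3 in *elav*, 2, 3 and 2 in *Rbp9*, and 2, 1 and 2 in *fne*, with overlapping ranges. Per 10 kb of interval the IDR set had 2.00 summits in *elav*, 1.36 in *Rbp9* and 0.589 in *fne*. Distance to the gene's nearest TSS was at most 554 bp for *elav*, 831 bp for *Rbp9* and 8496 bp for *fne*. All 3 *elav* and both *Rbp9* peaks were supported by every replicate, against 1 of the 2 *fne* peaks. This contrast rests on the 1 bp rule. In replicate 1 the same row supported both downstream *elav* peaks, and the weaker *Rbp9* peak was supported by a row with its summit 196 bp away. With a reciprocal overlap of 50%, 4 of the 9 peaks kept the support of all 3 replicates. The share of all IDR peaks that did so was not computed.

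**Figure D2:**
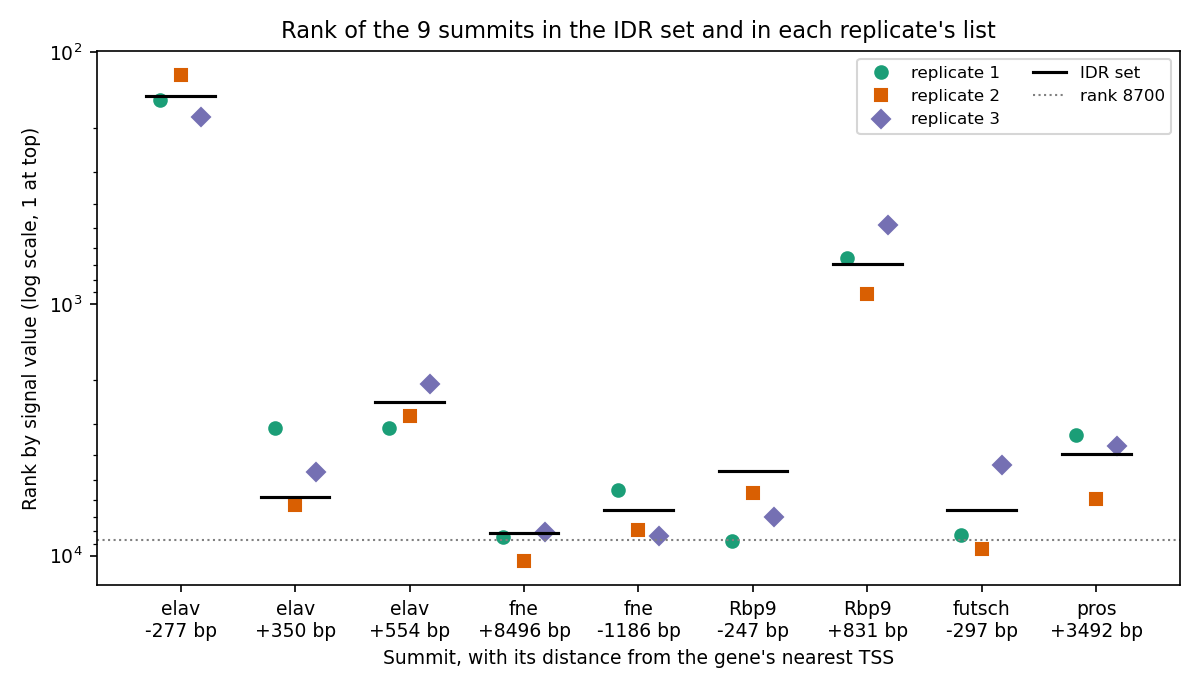
Rank of each of the 9 summits by signal value, on a log y axis with rank 1 at the top, in the IDR set (black bars) and in each replicate's full list (symbols, the overlapping row with the nearest summit). The promoter summit of *elav* stands between ranks 123 and 181 in the replicates and the *Rbp9* summit at +831 bp between 486 and 916, while the replicate ranks of the other 7 start at 2084.

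The synaptic genes *nSyb*, *Syt1* and *brp* held 0 summits in 75.9 kb, in the IDR set and among the 8700 strongest rows of each replicate. *nSyb* (FBgn0013342, 3L, 1630348 to 1637752, minus strand) had no summit in the IDR set, none among the 8700 strongest rows of any replicate, and no row at all in the pooled list of 30000. The nearest IDR summit was 7568 bp from its main TSS, 121 bp upstream of a TSS of *alphaCOP*. *Syt1* (FBgn0004242, 2L, 2772327 to 2799979, minus strand) likewise had 0 summits in the IDR set and among the 8700 strongest rows of each replicate. Its pooled rows numbered 3 and lay around its main TSS, the strongest 223 bp upstream with a signal value of 36.4 at rank 16438. In their full lists, replicates 1 and 2 had rows over the strongest at ranks 11321 and 21973. *brp* (FBgn0259246, 37.8 kb long) had 0 summits in the IDR set and among the 8700 strongest rows of each replicate. It had a single pooled row with a signal value of 21.8 at rank 25183, over which replicate 3 had a row at rank 22633. *nSyb* is in the length class where 20.4% of genes had a summit, whereas *Syt1* and *brp* are in the class where 69% did.

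**Figure D3:**
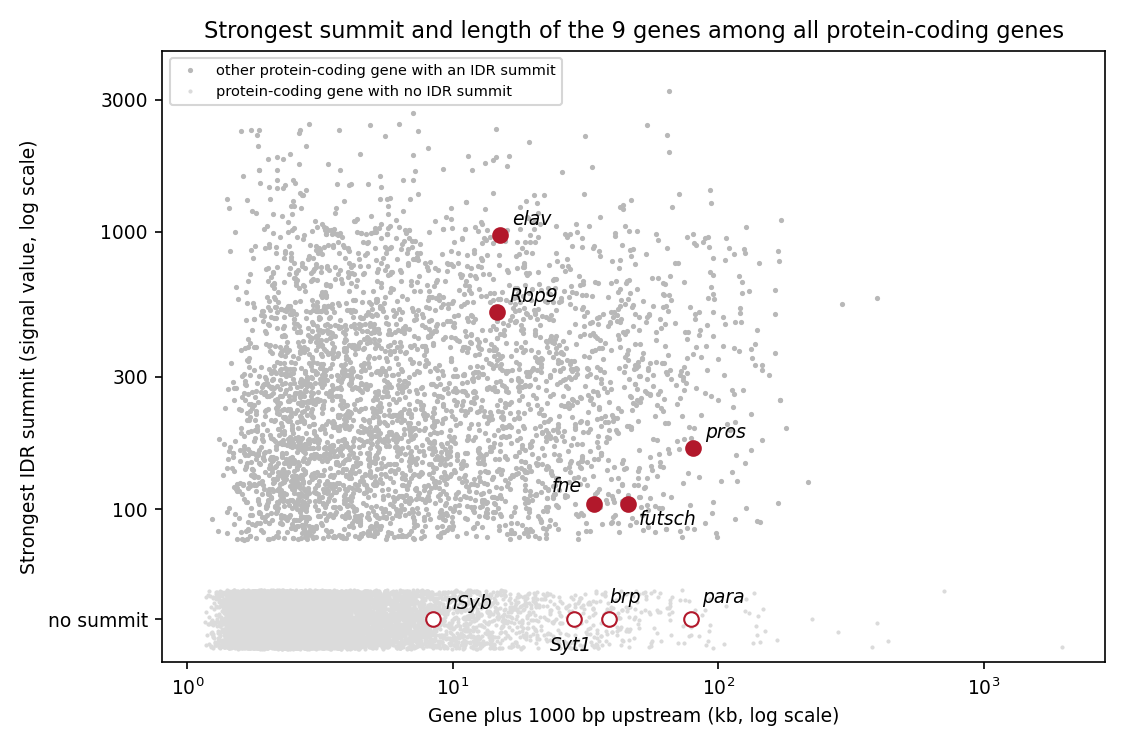
Strongest IDR summit in each protein-coding gene (signal value, log scale) against the length of the gene plus 1000 bp upstream (kb, log scale), with genes that have no summit in a band at the bottom whose vertical scatter has no meaning. Red filled points are the 5 neuronal genes with a summit and open points the 4 without; *elav* and *Rbp9* have similar lengths and the highest values, and *para* has no summit at a length close to that of *pros*.

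The longest members, *pros* and *para*, had 1 and 0 summits in intervals of 80.1 and 79.1 kb. Of all genes over 50 kb, 76.1% had at least 1, and their summit density was not computed. *pros* (FBgn0004595, 3R, 11328480 to 11407627, plus strand) had 1, at 11338472, intronic and 3492 bp downstream of the nearest of its 4 TSSs. Its signal value was 166 and its rank 3944, with signal values of 53.2, 52.6 and 55.3 and ranks of 3315, 5967 and 3652 in replicates 1, 2 and 3. Replicates 1 and 2 placed no other summit in *pros*, but replicate 3 placed 3 more, at ranks 7834, 8220 and 8645, and the pooled list held 8 rows below the threshold. The strongest of these, with a signal value of 76.6 at rank 8798, just missed the IDR set, whose weakest peak had 77.5. At the TSS of 3 of the 6 *pros* transcripts, position 11372788, the pooled list had a row 12 bp downstream with a signal value of 45.1.

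*para* (FBgn0285944, X, 16455027 to 16533096, minus strand) had no IDR summit in an interval of 79.1 kb, where 76.1% of genes of its class had at least 1. Its strongest pooled row, with a signal value of 57.8 at rank 11174, lay near the 3' end of the gene, 68681 bp from the nearest TSS. Replicate 3 had an overlapping row among its 8700 strongest, at rank 7967, while those of replicates 1 and 2 ranked 11826 and 14186. The TSS at 16527414, which 58 of the 60 *para* transcripts use, was 25299 bp from the nearest IDR summit.

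*futsch* (FBgn0259108, X, 1409069 to 1453686, plus strand) had 1 summit, at 1411429, 297 bp upstream of the middle of its 3 TSSs. The signal value was 104.05 and the rank 6595. Ranks in replicates 1, 2 and 3 were 8260, 9437 and 4365, so replicate 2 did not support the peak. The *futsch* window and that of *pros* are shown because both had more GC than most, at 44.6 and 41.6%, with 7.11 and 10.7% of all summit windows higher. Both are on the plus strand of dm6, and capitals mark CAATTA.
*futsch* at -297 bp (chrX:1411379-1411479): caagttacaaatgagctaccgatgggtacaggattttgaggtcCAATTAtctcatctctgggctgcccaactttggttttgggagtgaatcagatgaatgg
*pros* at +3492 bp (chr3R:11338422-11338522): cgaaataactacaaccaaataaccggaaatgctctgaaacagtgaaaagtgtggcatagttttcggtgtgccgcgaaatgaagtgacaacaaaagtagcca

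Of the 9 summits, 8 lay in an intron of a transcript of the gene, 1 lay upstream and 0 lay in an exon. The rule admits only gene bodies and their upstream 1000 bp, and the share of all IDR summits in exons was not computed, so nothing is read from this count. Within 1000 bp of a protein-coding TSS stood 6 of the 9, and 36.4% of all IDR summits did. The latter share also covers summits that the rule assigns to no gene, so the shares are not on equal terms. Of the 6, 3 were those of *elav*, which form 2 separate regions. The share of genes with a summit within 1000 bp of a TSS was 3 of the 9 (*elav*, *Rbp9* and *futsch*), against 23% of all protein-coding genes. TAATTG was present in 3 of the 9 windows (11.5% of all windows), TAATTA in 1 (10.8%) and TATCGATA, the DNA replication-related element, in 0 (0.701%). These words were read on both strands, and no base of a window belonged to matches of more than 1 word. Windows with less GC than the median of the set numbered 3 of 9.

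Other genes of the nervous system were counted in 5 lists by the same rule, without a test. These lists too were chosen with earlier results of these data known. Of all protein-coding genes, 26.9% had a summit, 23% had 1 within 1000 bp of a TSS and 5.64% had 3 or more. Among 38 genes of synaptic vesicles and active zones, 9 had a summit (23.7%), and the replicates' own lists gave 22.8% ± 3.04 (SD, n = 3). *Syn*, encoding Synapsin, had the strongest (signal value 467, rank 829), 638 bp upstream of a TSS of *Timp* and 22956 bp from its own nearest TSS. The lysosomal transporter gene *spin* (276) and *Syx1A* (226), encoding the SNARE Syntaxin, followed. The 29 without a summit included *Snap25*, *cac*, *Rim*, *cpx*, *VGlut* and *Gad1*. Summits within 1000 bp of a TSS were found for 4 of the 38 (10.5%), named after their values were seen: *Csp*, *EndoA*, *Sytbeta* and *Syx1A*. The strongest values in *Csp*, *EndoA* and *Sytbeta* were 96.6, 95.3 and 102, near the weakest IDR peak of 77.5. Replicate 1 placed 0 of its own summits in *EndoA*. The summits of *Csp*, *EndoA* and *Syx1A* were also counted for the genes *CG11523*, *CG14292* and *CG10694*. By length, 4 of 17 genes under 10 kb, 1 of 7 of 10 to 20 kb, 3 of 11 of 20 to 50 kb and 1 of 3 over 50 kb had a summit. In those classes 20.4, 54.4, 69 and 76.1% of all protein-coding genes did. Density was 1.14 summits per 100 kb, against 7.40 over all protein-coding genes.

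Ion channels and receptors gave 16 of 39 genes (41.0%), or 41.0% ± 4.44 in the replicates (SD, n = 3), with a density of 2.13 per 100 kb. They were led by the potassium channel gene *KCNQ* (signal value 867, rank 214), the channel subunit gene *Hk* (497) and *NaCP60E* (429). The *KCNQ* summit lay 4823 bp from its own nearest TSS and 769 bp upstream of a TSS of *mlt*. By length, 1 of 7 genes under 10 kb and 4 of 8 of 10 to 20 kb had a summit. So did 6 of 11 of 20 to 50 kb and 5 of 13 over 50 kb, the class of *para*. In those classes 20.4, 54.4, 69 and 76.1% of all protein-coding genes did. The channel genes *Sh*, *eag*, *slo* and *Shab* had none. A summit within 1000 bp of a TSS was present in 7 of the 39 (17.9%), against 23% of all protein-coding genes.

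Genes of the axon cytoskeleton and of guidance had summits in 23 of 38 cases (60.5%), or 62.3% ± 7.60 in the replicates (SD, n = 3). Of the 38, 14 had 3 or more, against 5.64% of all protein-coding genes. These shares are not on equal terms, since the median interval was 33.3 kb in the list and 3.17 kb over all genes. Of all genes of 10 to 20 kb, 18.9% had 3 or more, and the share in longer classes was not computed. *Ank2*, encoding an ankyrin of axons, had a summit of signal value 874 (rank 208) that lay 638 bp upstream of its own TSS and 317 bp upstream of that of *Mcad*. The semaphorin gene *Sema1a* had 12 summits (strongest 612) and the kinesin light chain gene *Klc* 1 (451). By length, 1 of 4 genes under 10 kb and 3 of 9 of 10 to 20 kb had a summit. So did 8 of 13 of 20 to 50 kb and 11 of 12 over 50 kb. In those classes 20.4, 54.4, 69 and 76.1% of all protein-coding genes did. Density was 7.39 per 100 kb.

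Neuroblast and neuronal fate genes, the class of *pros*, had summits in 14 of 38 cases (36.8%, and 35.1% ± 1.52 in the replicates, SD, n = 3). *brat*, a growth repressor of neural lineages, had 13 summits (strongest 818, rank 250), *numb*, the Notch inhibitor, 4 (735), and *grh*, encoding the transcription factor Grainy head, 11 (623). By length, 2 of 22 genes under 10 kb and 2 of 4 of 10 to 20 kb had a summit. So did 7 of 9 of 20 to 50 kb and 3 of 3 over 50 kb. In those classes 20.4, 54.4, 69 and 76.1% of all protein-coding genes did. Among those with none in the IDR set were *ase*, *dpn*, *ac*, *sc*, *ato* and *mira*. In *dpn*, replicates 1 and 3 each placed 1 of their own summits. On the other side, *insc* had 3 IDR summits and *klu*, *hb* and *nab* had 1 each. Density was 8.09 summits per 100 kb, the only one of the 5 lists above the 7.40 of all protein-coding genes.

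RNA-binding proteins of neurons, the class of *elav*, had the highest share, 16 of 21 genes (76.2%, and 74.6% ± 2.75 in the replicates, SD, n = 3). Their median interval of 54.3 kb was also the longest of the 5 lists. Per 100 kb they held 5.13 summits, fewer than the axon list, the fate genes and all protein-coding genes. The translational repressor gene *pum* had 14 summits (strongest 1101, rank 94), *mub* 6 (953, rank 159) and *heph*, encoding a polypyrimidine tract-binding protein, 9 (788, rank 268). The promoter summit of *elav* (972) would stand between the first pair. The 5 genes without a summit were *Fmr1*, *bru3*, *lark*, *nonA* and *tra2*. A summit within 1000 bp of a TSS was present in 12 of 21 (57.1%), against 23% of all protein-coding genes. By length, 1 of 4 genes under 10 kb and 2 of 3 of 10 to 20 kb had a summit. So did 3 of 3 of 20 to 50 kb and 10 of 11 over 50 kb. In those classes 20.4, 54.4, 69 and 76.1% of all protein-coding genes did. Whether gene length accounts for the differences between lists was not tested.

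**Figure D4:**
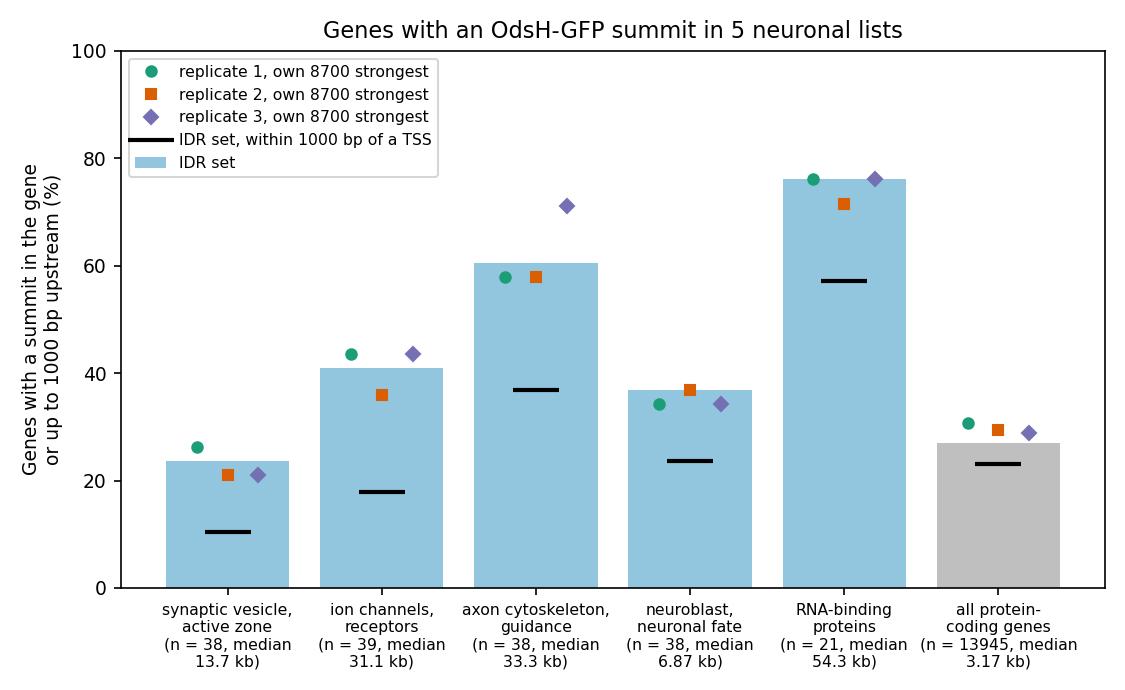
Share of genes with a summit in the gene or up to 1000 bp upstream (bars, IDR set; symbols, each replicate's own 8700 strongest rows; black dashes, IDR summits within 1000 bp of a TSS) in 5 neuronal lists and, at the right, over all protein-coding genes. Below each name stand the number of genes and the median interval; the share is 23.7% for synaptic genes and 76.2% for RNA-binding proteins, beside 26.9% for all genes.

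By number and strength of summits, 267 other protein-coding genes had 3 summits as *elav* did. The closest in log2 of the strongest signal value was *arg*, which holds the same 3 summits. *REPTOR* (strongest signal value 982, log2 difference 0.02) and *Msp300* (954, log2 difference -0.03) followed.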

How the data were processed

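The authors deposited peak lists in narrowPeak format on dm6 and dm3, per the file lists that accompany each library. The dm6 lists were used: 1 optimal IDR set, 1 pooled list of 30000 rows (peaks and background) and 1 such list for each of 3 replicates. Per those file lists, every replicate list shared 1 control, and the pooled list names a second control. Aligner, peak caller and their versions: not given in the sources used here. Each peak's signal score was deposited by the authors and served only for ranking within a list. The summit is the deposited peak start plus the deposited offset, given 1-based. The 8700 IDR rows are the 8700 strongest pooled rows, so replicates and IDR set are not independent.

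Genes, transcripts and TSSs came from Ensembl release 115 (BDGP6, dm6 coordinates) without transposable elements, and windows of 50 bases on each side of a summit from the RefSeq genome of the same assembly. Of 176 list symbols, 174 matched; *Trh* and *nos* did not and were left out. The named genes were the 9 members, the 3 genes per list with the strongest summit and the 3 genes most like *elav*. Genes whose TSS lies nearest a member's or named gene's summit were named too. Other list members named, with or without a summit, and genes sharing their summits were picked afterwards. The 9 genes and the lists were chosen with earlier results of these data known. Replicate values come from each replicate's own 8700 strongest rows. No test was made, since there is 1 group. Counting was checked on simulated data. Python 3.11.15, numpy 2.4.6, pandas 2.3.3 and matplotlib 3.10.9 were used.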

Additional observations from a re-analysis of the deposited data

How the results depend on the processing

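Of 53 alternatives, 38 gave counts within 1.5 times those reported. In the stronger 4350 IDR peaks the 9 genes held 4 summits, in 3 genes, and over the full pooled list 39, in 8 genes, of them 6 in *elav*. Of all protein-coding genes, 18.8% held a summit in the stronger 4350 peaks and 41.7% in the full pooled list. That list includes background. A summit within 1000 bp of a TSS was present in 3 of the 9 genes, against 23% of all protein-coding genes. With a reciprocal overlap of 50%, all 3 replicates supported 4 of the 9 peaks, and with doubled or full replicate lists all 9. The shares of all IDR peaks under these rules were not computed, so nothing is read from these counts. Without a replicate in turn, the mean count of summits ranged from 8 to 10.5. The 0 for *nSyb*, *Syt1* and *brp* held in the IDR set and in each replicate's list.

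Among the lists, counting within 1000 bp of a TSS gave 4 of 38 synaptic genes, 7 of 39 channel genes, 14 of 38 axon genes and 9 of 38 fate genes. The share of all protein-coding genes was 23%. The stronger 4350 peaks gave 4 synaptic and 10 channel genes, against 18.8% of all protein-coding genes. Peaks supported by all 3 replicates gave 4 synaptic and 8 fate genes, against 21.6% of all protein-coding genes. Merging overlapping peaks, chosen after seeing the data, gave 8 regions in all and 2 in *elav*. Depth is unknown, so absence of a summit is absence at the depth of these lists.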

Other observations

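The nearest IDR summits outside the synaptic genes with no summit lay within 500 bp of a TSS of a neighbouring gene in 4 of 6 cases. In the others they lay several kb from any. Of all IDR summits, 27.2% lay within 500 bp of a protein-coding TSS, and the difference was not tested. The nearest IDR summit upstream of *nSyb* (signal value 998, rank 132) lay 6568 bp beyond the counted interval, 121 bp upstream of a TSS of *alphaCOP*, a coatomer subunit gene. On the other side of *nSyb* the nearest (223, rank 2659) lay 38461 bp beyond the gene and 5193 bp from a TSS of *CG13917*. The summit closest to *brp* lay upstream, 3916 bp beyond the interval and 4683 bp from a TSS of *Wnt2* (176, rank 3687). Downstream of *brp*, 5619 bp beyond the gene, a summit with a signal value of 1651 (rank 38) lay 226 bp upstream of a TSS of *CG1888*. *Syt1* had a weaker neighbour, 2385 bp beyond its 3' end and 124 bp downstream of a TSS of *colt* (131, rank 5132), and upstream a summit (609, rank 475) 29514 bp beyond the interval, 245 bp upstream of a TSS of *Duox*.

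The flanks of the *elav* family were mixed. Downstream of *elav* a summit of similar strength (978, rank 147) lay 15237 bp beyond the gene, 503 bp upstream of a TSS of *CG17896*. Upstream, the nearest was 57857 bp beyond the interval, 38 bp upstream of a TSS of *vnd*, a homeobox gene of the neuroectoderm (97.3, rank 7047). Downstream of *Rbp9* a summit (546, rank 609) lay 138 bp upstream of a TSS of *gammaTub23C*, a gamma-tubulin gene. The first summit outside the *fne* interval lay 3576 bp upstream of the gene's own start (102, rank 6756), and 2 of the 3 replicates supported it.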
